A study of Mus musculus with 3 samples.

Results

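The genes described here make, destroy and act on cyclic AMP and cyclic GMP, and they were chosen by symbol alone: Adcy or Pde followed by a digit, without the Pde6 genes of the photoreceptor cascade, and Prkac, Prkar and Akap. The rule took 48 of the 18545 genes in the mouse retina single-cell RNA-seq data, namely 10 adenylyl cyclases, 20 genes named Pde, 2 catalytic and 4 regulatory subunits of protein kinase A (PKA) and 12 A-kinase anchoring proteins (AKAPs). The 6 Pde6 genes stayed out, as did the 2 genes whose symbol has no digit after Adcy. Of the 20 Pde genes, 18 encode enzymes that hydrolyse cyclic nucleotides. Pde12 and Pde4dip carry the name but encode a nuclease and a centrosomal and Golgi scaffold, respectively.

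All mice were C57BL/6J, dark-reared and 8 weeks old, and each group was 1 library of pooled retinas. The WT group had wild-type mice of both sexes on the base chow. The rd10-vehicle group had female rd10 mice on the same chow, and the rd10-TMB group had female rd10 mice whose chow held tamsulosin, metoprolol and bromocriptine, which act on alpha-1 adrenergic, beta-1 adrenergic and dopamine D2-like receptors. The rd10 allele is a point mutation in Pde6b that kills rods and then cones, and tag counts cannot show it. The labels and the text of the study give different numbers of pooled rd10 mice. Because animals were pooled and each group is 1 library, no test between groups was possible. Sex differs along with genotype in the WT comparisons. Only rd10-vehicle over WT was also run with just those WT cells that had an Xist UMI and no Y-linked one. All intervals are 95% and reflect counting error alone. They compare the libraries and say nothing of the spread between mice.

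The WT, rd10-vehicle and rd10-TMB libraries held 4478, 5952 and 4812 cells and 18882951, 37002532 and 29192530 unique molecular identifiers (UMIs), with a median of 3509.5, 4811.5 and 4772.5 UMIs per cell. Any pair of libraries shared 7 to 10 cell barcodes. Of the 21 clusters deposited by the authors, 10 classes had at least 50 cells in every library and were compared: Müller glia-like (MG-like; 14 of 14 markers), rod-like (12 of 12), rod bipolar-like (10 of 10), cone-like (10 of 10), endothelial-like (10 of 10), amacrine-like (clusters 5 and 9), OFF cone bipolar-like (clusters 7 and 8) and clusters 3, 6 and 10, which are called by number because too few markers of any list were among their leading genes. The amacrine-like class had 756, 105 and 83 cells in the 3 libraries, so its rd10 values are the least precise. Levels are given as CPM, a gene's UMIs for each 1000000 UMIs of the class in that library. Each UMI is 1 tag from the 3′ end of a molecule, so CPM was not divided by gene length. Fewer cells of a kind within a class and less RNA per cell cannot be told apart.

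Adenylyl cyclases make cAMP from ATP and are set apart by what drives them: calmodulin-bound calcium (Adcy1, Adcy3, Adcy8), inhibition by calcium (Adcy5, Adcy6) or G protein beta-gamma subunits (Adcy2, Adcy4, Adcy7). Phosphodiesterases end the signal, and differ in whether they take cAMP, cGMP or both. Free cAMP binds the regulatory subunits of PKA and releases the catalytic subunits, while AKAPs hold the kinase, and often a phosphodiesterase, at chosen places in the cell. Dopamine and beta adrenergic receptors act through cyclases, while alpha-1 adrenergic receptors act mainly through Gq and calcium, and cGMP is the messenger of the light response in photoreceptors.

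The most abundant member was Prkar1a, the type I alpha regulatory subunit, with 19436 of the 143943 UMIs of all 48 genes. Its promoter is shown because it was the only member promoter that held a full cAMP response element (CRE), the site at which the cAMP-responsive factor CREB can bind. RefSeq (GRCm38.p6, the mm10 build) gave a position for all 48 members and promoter windows of 300 bases, 250 before to 50 after a start site, for 41 of them. The capitals mark TGACGTCA, which reads the same on both strands and whose first base lies 49 bases before this start site. The window is at chr11:109650699-109650998 on the plus strand.

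Prkar1a: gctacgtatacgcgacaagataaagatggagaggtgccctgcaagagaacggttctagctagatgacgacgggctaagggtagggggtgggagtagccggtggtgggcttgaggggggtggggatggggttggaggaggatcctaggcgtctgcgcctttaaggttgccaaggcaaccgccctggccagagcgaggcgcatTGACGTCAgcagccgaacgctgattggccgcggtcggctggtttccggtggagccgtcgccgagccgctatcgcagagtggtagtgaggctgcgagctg

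A second, overlapping Prkar1a window held the same site. Together they made 2 of the 83 member windows, or 2.41%, against 1.79% of all 32851 windows. The shorter core TGACG, searched on both strands and counted also where it lies within the full CRE, was in 20.5% of the member windows and 20.8% of all windows. Counted by gene, 15 of the 41 members had it in at least 1 window (36.6%), against 23.0% of 27025 genes, and genes differ in how many windows they have. A match is a description of letters and not a site of binding.

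The 48 genes differed widely in level and in the class that led them. Over the 3 libraries 45 of them had at least 50 UMIs, and Adcy10, Adcy7 and Pde11a had 30, 49 and 28. With the 3 libraries pooled, 12 members were highest in amacrine-like cells among the 10 classes, 9 in rod-like cells and 9 in endothelial-like cells. OFF cone bipolar-like cells led 6, cluster 6 led 4, cone-like cells 3 and cluster 3 led 2. Rod bipolar-like cells, MG-like cells and cluster 10 led 1 each. Some leaders differed in WT alone, where Pde3a was at 344 CPM in cluster 6 and 174 in amacrine-like cells. For 28 of the 48, the leading class was the same in all 3 libraries.

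**Figure D1:**
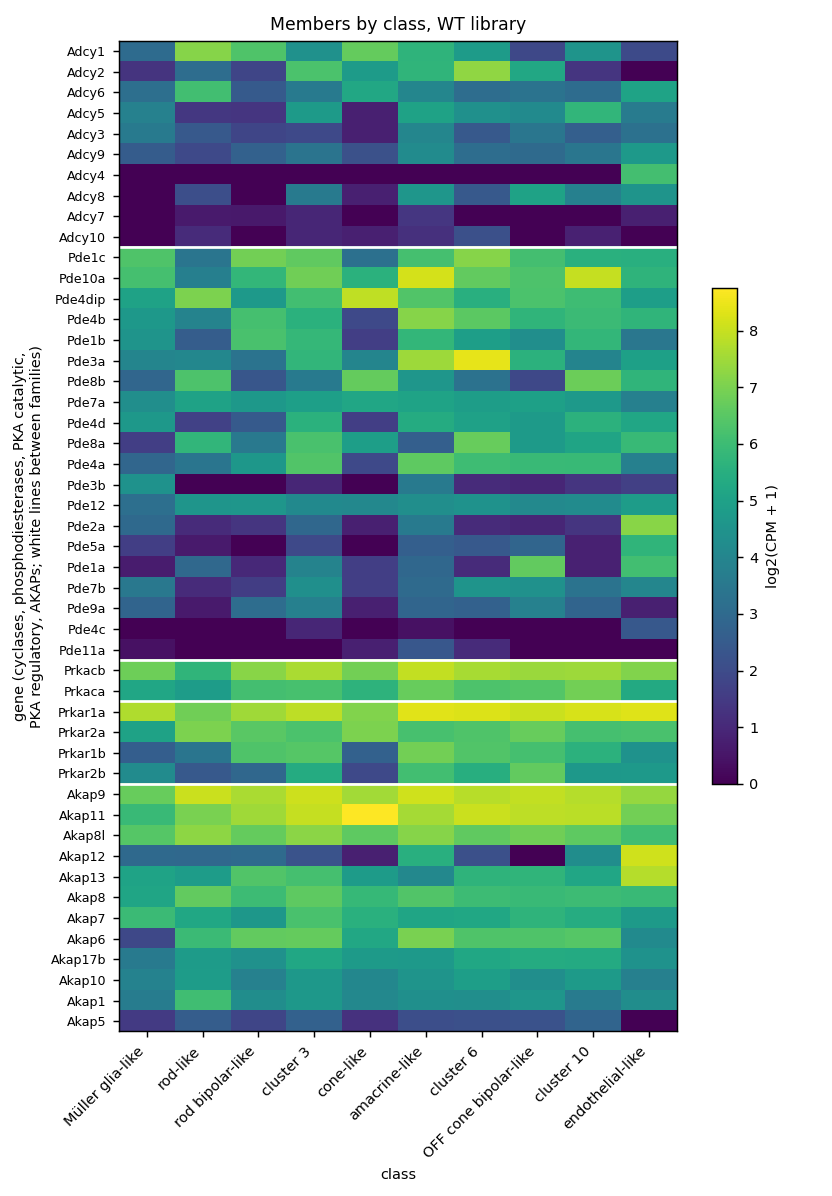
Level of each of the 48 genes (rows, grouped by family) in the 10 compared classes (columns) of the WT library, as log2(CPM + 1) by colour. Prkar1a, Akap9 and Akap11 are high in nearly every class, while Adcy4 is seen in endothelial-like cells and Pde3b mainly in Müller glia-like cells.

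The cyclases had different leading classes. Adcy1, a cyclase driven by calcium and calmodulin, was highest in rod-like and cone-like cells among the compared classes. In the order WT, rd10-vehicle, rd10-TMB, which is kept below, its level was 142, 131 and 137 CPM in rod-like cells and 102, 83.4 and 73.2 CPM in cone-like cells. It made up 61.4% of all cyclase UMIs of WT rod-like cells and 82.0% of those of WT rod bipolar-like cells. Adcy2 led in cluster 6, with 156, 236 and 215 CPM in the 3 libraries. Adcy6, which calcium inhibits, was highest in rod-like cells among the compared classes, at 67.8, 39.5 and 62.5 CPM, while the small pericyte-like cluster had 94.5 CPM over the 3 libraries. Adcy4 was endothelial, at 68.8, 67.6 and 60.4 CPM, and the other 9 classes held 1 UMI between them over the 3 libraries. The count of 0 in each of these 9 classes in WT allows a level of up to 0.904 to 3.35 CPM, depending on the class.

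MG-like cells had the lowest summed cyclase level of the 10 classes, at 45.8 CPM in WT (interval 38.8 to 53.7) and 44.8 and 41.6 CPM in the rd10 libraries. It was spread over several genes, with Adcy5 at 13.3, 10.5 and 9.78 CPM and Adcy3 at 10.8, 10.6 and 9.66 CPM. The rod-like sum was 232 CPM in WT. The glial sum was below the rod-like sum in each library.

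The phosphodiesterases too had different leading classes. Of the forms that take both nucleotides, Pde10a led in amacrine-like cells among the compared classes, with 288, 280 and 396 CPM in the 3 libraries, and the calcium- and calmodulin-driven Pde1c in cluster 6, with 142, 175 and 137 CPM. Among the compared classes Pde1a was highest in OFF cone bipolar-like cells, at 98.2, 79.5 and 105 CPM, and within that class it was 34.7 CPM in cluster 7 and 139 CPM in cluster 8 over the 3 libraries. Pde2a, which cGMP activates, had 146, 122 and 153 CPM in endothelial-like cells and at most 11.1 CPM in the other 9 classes. Pde3b, which cGMP inhibits, was led among the compared classes by MG-like cells, at 20.8, 34.6 and 26.9 CPM. The microglia-like cluster was higher still, at 137 CPM over its 88 cells, of which only 6 were in WT.

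Of the cAMP-specific forms, Pde8b was the highest in cone-like cells, with 102, 87.3 and 77.8 CPM. In rod-like cells it had 78.4, 60.4 and 64.1 CPM, above Pde8a in WT and rd10-vehicle and close to it in rd10-TMB. Pde8a was highest in cluster 6, at 104, 106 and 105 CPM, and Pde4b in amacrine-like cells, at 143, 177 and 190 CPM. Of the cGMP-specific pair, Pde9a stayed at or below 17.1 CPM in each of the 10 classes and each library, and Pde5a was led by endothelial-like cells among the compared classes and by the pericyte-like cluster among all clusters, at 301 CPM over the 3 libraries. In rod-like and cone-like cells the summed level of Pde5a and Pde9a was at most 1.11 CPM in any library.

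PKA was led by the same 2 genes nearly everywhere. Prkacb made up 75.8% of the catalytic UMIs in MG-like cells of the WT library, 67.5% in rod bipolar-like and 65.2% in rod-like cells. Among the regulatory subunits Prkar1a held 78.9% in WT MG-like cells, where its level was 205, 240 and 231 CPM in the 3 libraries. In WT rod-like cells Prkar2a held 50.2% (45.6 to 54.9) and Prkar1a 44.4% (39.8 to 49.0), so their intervals overlapped and neither clearly led. Rod-like cells also had the lowest summed catalytic level of the 10 classes in each library, at 78.4, 67.4 and 56.2 CPM. Prkar2b, the type II beta subunit, separated the OFF cone bipolar-like clusters, with 275 CPM in cluster 7 and 11.8 CPM in cluster 8 over the 3 libraries.

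The AKAPs summed to between 426 CPM in MG-like cells and 1103 CPM in cluster 3 in WT. For 7 of the 12 AKAPs, MG-like cells were the lowest of the 10 classes. Akap11, which binds PKA and glycogen synthase kinase, was the leading AKAP of cone-like cells, at 428, 434 and 501 CPM, and held 45.8% of their AKAP UMIs in WT. Akap9, a centrosomal and Golgi anchor, was the most abundant member of WT rod-like cells, with 263, 238 and 256 CPM in the 3 libraries. Akap1, which anchors PKA at mitochondria, was highest in rod-like cells at 66.2, 43.0 and 64.9 CPM. Akap12, a scaffold of the plasma membrane and cytoskeleton, was an endothelial gene in WT, with 273 CPM there and 6.93 CPM in MG-like cells. The small horizontal-like cluster, with 28 cells, had a still higher Akap12 level of 594 CPM over the 3 libraries.

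**Figure D2:**
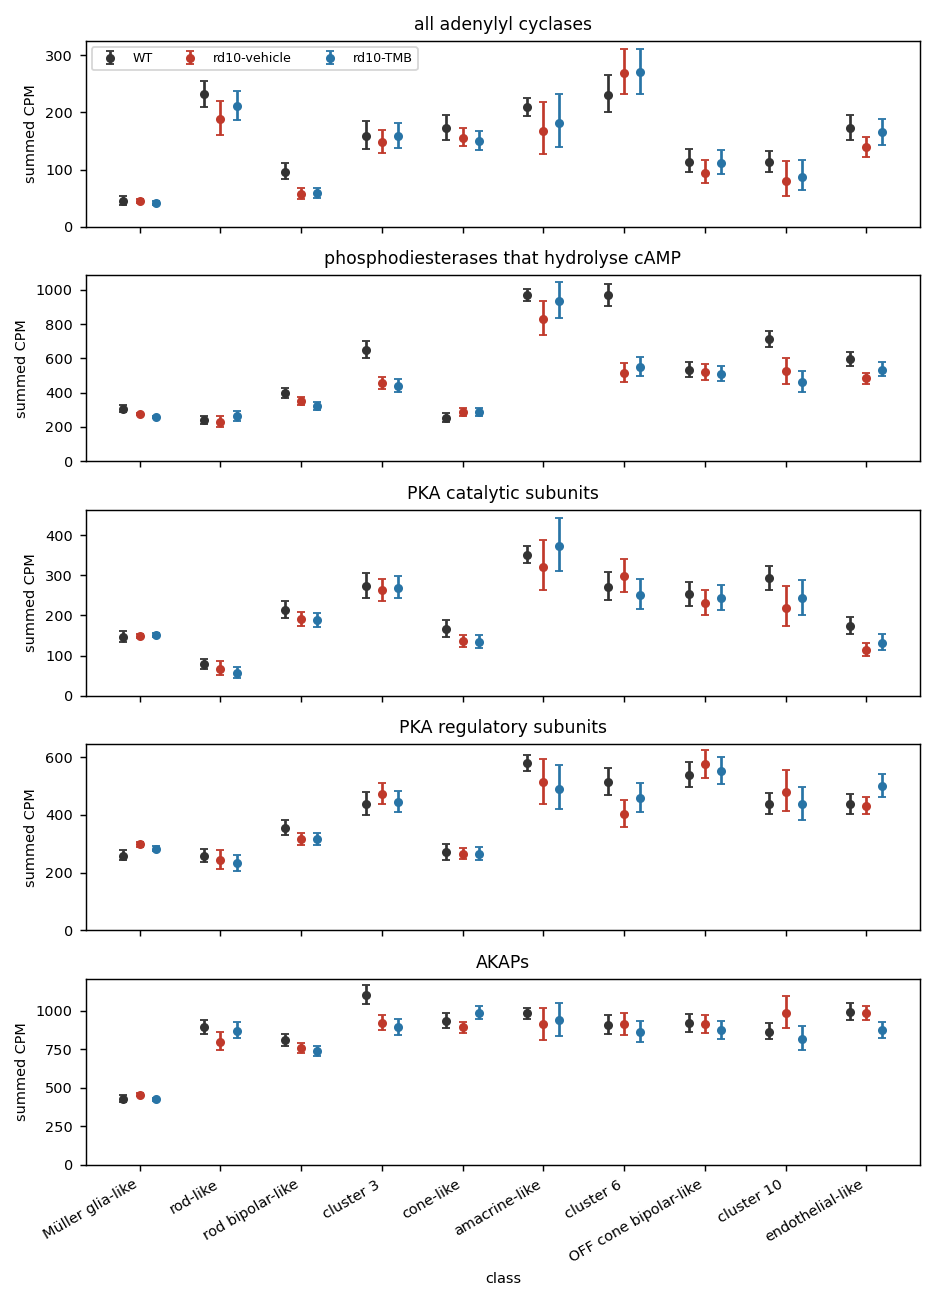
Summed level in CPM of the cyclases, the phosphodiesterases that hydrolyse cAMP, the PKA catalytic subunits, the PKA regulatory subunits and the AKAPs in each compared class. Points are the 3 libraries (1 per group) and bars are 95% Poisson intervals, and the library points lie close together in most classes, with cluster 6 phosphodiesterases (967 CPM in WT, 515 in rd10-vehicle) and rod bipolar-like cyclases (96.2 and 57.3) among the exceptions.

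The first comparison asked how the retina of the untreated rd10 mouse differed from WT. A gene was compared in a class when it had at least 50 UMIs over both libraries, and it was called higher or lower when its CPM differed by at least 1.5-fold with an exact conditional interval that did not include equal levels. A call is therefore lost when the difference falls under 1.5-fold or when its interval, wider with fewer UMIs, comes to include equal levels. Ratios are log2 with 1 UMI added to each count. For 4 members, Adcy7, Adcy10, Pde4c and Pde11a, no class reached the 50 UMIs here or in rd10-TMB over rd10-vehicle. Each of these comparisons covered 43 members. Of 272 gene-class pairs over 43 members, 14 were higher in rd10-vehicle, or 5.15%, and 29 were lower, or 10.7%. Over all genes, 4.72% of 74484 pairs were higher and 5.74% lower. The share of members that were higher was near that of all genes, and the share that were lower was above it. Both counts of members changed with the fewest UMIs, the depth and the fold limit, as given in the closing section.

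Phosphodiesterases made up most of the lower pairs, with 18 of their 98 pairs lower and 9 higher. These pairs come from fewer genes, since Pde10a was lower in 6 classes. Pde3a was lower in OFF cone bipolar-like cells and clusters 3 and 6, and Pde1c in amacrine-like cells, endothelial-like cells and cluster 3. Of the cyclase pairs 3 of 27 were lower and 1 higher, and of the AKAP pairs 7 of 94 were lower and 3 higher. Few PKA subunit pairs were called: 1 of 20 catalytic pairs was lower, 1 of 33 regulatory pairs was higher, and the rest were called in neither direction. The median log2 ratio of the members was between -0.23 in amacrine-like cells and 0.08 in cluster 10, beside -0.06 to 0.05 for all genes. Of the 43 calls, 17 were kept under each of 11 other ways of processing and 26 were lost under at least 1 of them. Against the WT cells marked as female alone, 10 pairs were higher and 23 lower.

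**Figure D3:**
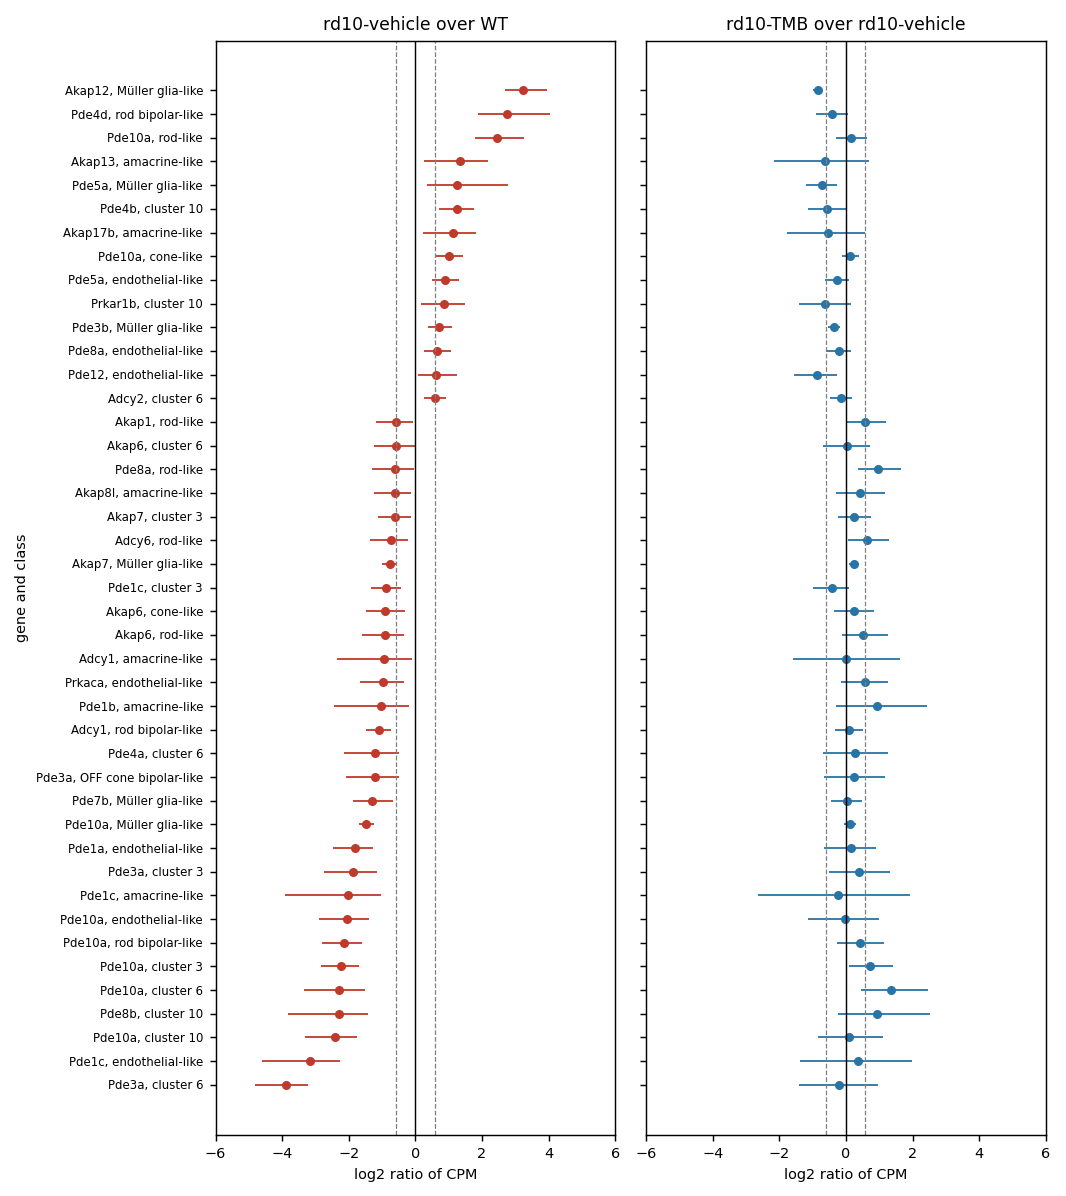
Log2 ratios of CPM (points) with exact 95% conditional intervals (lines) for the 43 gene-class pairs called in rd10-vehicle over WT (left), and the same pairs in rd10-TMB over rd10-vehicle (right), where pairs under 50 UMIs are drawn too. Dashed lines mark 1.5-fold, and Akap12 in Müller glia-like cells is highest on the left (3.23) and below the lower dashed line on the right (-0.84).

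Pde10a (chr17:8525187-8986648) was called in 8 of the 10 classes. It is a phosphodiesterase for both cAMP and cGMP, best known from striatal neurons. In photoreceptors it was higher in the rd10 retina. The rod-like level was 12.8 CPM in WT against 72.0 and 80.7 CPM in rd10-vehicle and rd10-TMB, a log2 ratio of 2.46 for rd10-vehicle over WT (1.78 to 3.25). In cone-like cells it was 47.0, 94.7 and 104 CPM, a log2 ratio of 0.995 (0.61 to 1.42). Both rd10 libraries stood above WT in both classes.

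In 6 other classes Pde10a was lower in the rd10 retina. MG-like cells had 70.5, 25.5 and 27.4 CPM in WT, rd10-vehicle and rd10-TMB, with a log2 ratio for rd10-vehicle over WT of -1.47 (-1.69 to -1.24). Rod bipolar-like cells had 53.9, 11.9 and 15.9 CPM, with a ratio of -2.15 (-2.81 to -1.60). Cluster 3 had 114, 23.8 and 39.8 CPM, and endothelial-like cells 50.1, 11.6 and 11.1 CPM. In clusters 6 and 10 the WT levels were 98.2 and 248 CPM and the rd10-vehicle levels 18.9 and 44.2 CPM. In amacrine-like cells, which led the gene, the ratio was -0.03 (-0.36 to 0.27), and in OFF cone bipolar-like cells it was 0.33 (-0.10 to 0.77), so that neither reached 1.5-fold. All 8 Pde10a calls were kept under each of the 11 alternatives. As a share, Pde10a went from 5.32% of the cAMP-hydrolysing Pde UMIs of rod-like cells in WT to 31.3% in rd10-vehicle, and from 22.9% to 9.28% in MG-like cells.

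**Figure D4:**
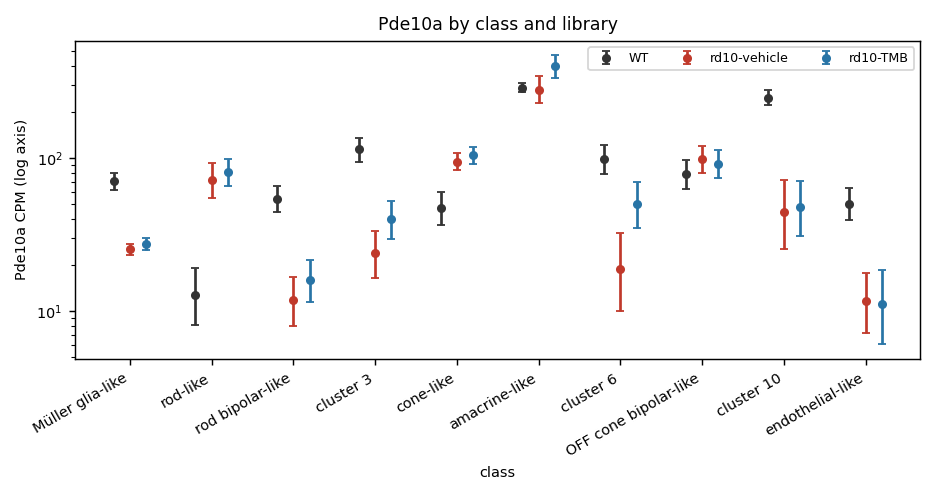
Level of Pde10a in CPM (log axis) in the 10 compared classes, with 1 point for each of the 3 libraries and 95% Poisson intervals. The rd10 points lie above WT in rod-like and cone-like cells (72.0 and 94.7 CPM in rd10-vehicle against 12.8 and 47.0 in WT) and below it in 6 other classes, while amacrine-like cells are nearly level between WT and rd10-vehicle (288 and 280).

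Transcripts of other cells moved too, and their values stand beside Pde10a. In rod-like cells 10 cone markers summed to 398, 1075 and 643 CPM in the 3 libraries, against 46520, 42738 and 44101 in cone-like cells. The 14 Müller glia markers also differed, at 631, 1318 and 1234 CPM in rod-like and 760, 1424 and 1312 CPM in cone-like cells. For the lower side, the 15 amacrine markers summed to 847, 648 and 654 CPM in MG-like cells, 128, 90.2 and 93.3 in rod bipolar-like cells, 550, 548 and 482 in cluster 3, and 102, 22.2 and 38.2 in endothelial-like cells. In clusters 6 and 10 the list summed to 10856, 640 and 913 CPM and to 2094, 511 and 1087 CPM. Pax6, which is on the list, is also a gene of Müller glia, so Gad1, Gad2 and Slc6a9, for GABA synthesis and glycine uptake, were summed on their own too. That choice was made after the values were seen.

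Between WT and rd10-vehicle these 3 markers differed by a larger factor than the whole list in MG-like cells, rod bipolar-like cells and cluster 3, and by a smaller one in cluster 6. They summed to 1169, 1264 and 1303 CPM in amacrine-like cells, with 0.246, 0.221 and 0.304 UMIs of Pde10a for each of their UMIs. In MG-like cells the sum was 16.0, 2.52 and 3.22 CPM, with 4.42, 10.1 and 8.52 Pde10a UMIs for each, and in rod bipolar-like cells it was 13.7, 2.29 and 4.07 CPM, with 3.93, 5.17 and 3.91. In cluster 3 it was 42.9, 9.79 and 8.43 CPM, with 2.65, 2.43 and 4.73. In endothelial-like cells it was 15.0, 2.22 and 3.97 CPM, with 3.33, 5.25 and 2.80. The markers and Pde10a were both lower in rd10-vehicle than in WT in MG-like, rod bipolar-like and endothelial-like cells and in cluster 3. Cluster 6 had 517, 40.7 and 27.4 CPM of the markers and 0.19, 0.464 and 1.84 Pde10a UMIs for each, and cluster 10 had 577, 108 and 267 CPM and 0.43, 0.41 and 0.179. Without cells that had any UMI of the 3 markers, the Pde10a log2 ratio in cluster 10 was -1.04 in place of -2.41, while in MG-like cells it was -1.46 and in rod bipolar-like cells -2.23. The part of cone, glial or amacrine RNA in the Pde10a values was not tested.

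Counted by cells, 1.86% of WT rod-like cells had a Pde10a UMI (22 of 1180; 1.17 to 2.81), against 10.3% and 12.5% in the rd10-vehicle and rd10-TMB libraries. With each cell thinned to 1000 UMIs, and 226, 68 and 80 shallower cells left out, the shares were 1.26%, 6.56% and 7.81%. For Pde4d, which rod-like cells nearly lacked, the corresponding share was 0%, 0% and 0.3%, and median depth was 1423, 1406 and 1536 UMIs per cell.

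In MG-like cells, 3 of 38 members were higher and 3 lower in rd10-vehicle. Over all genes, 14.3% of the 12404 compared in that class were called in either direction. Akap12 (chr10:4266329-4359471) changed most. Its 23, 1508 and 636 UMIs in the 3 libraries gave 6.93, 67.9 and 37.9 CPM, with a log2 ratio for rd10-vehicle over WT of 3.23 (2.70 to 3.96). The 3 levels did not overlap within their intervals, and WT was lowest. Thinned to 1000 UMIs the log2 ratio was 4.98, with no Akap12 UMI left in the WT cells. A UMI of Akap12 was found in 2.64%, 24.1% and 14.8% of the MG-like cells of the 3 libraries, and in 0%, 4.73% and 1.80% after thinning. In cone-like cells, which should lack the gene, 0.36%, 0.554% and 1.21% of cells had a UMI, at a median of 5333, 4857 and 5548.5 UMIs per cell against 6300, 8593.5 and 9454.5 in MG-like cells.

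The summed level of 10 endothelial markers in MG-like cells was 828, 657 and 677 CPM in the 3 libraries, lower in rd10 than in WT. That of 10 astrocyte markers was 2120, 2476 and 2312 CPM, though Aqp4 on that list is also on the Müller glia list. That of 10 pericyte markers was 109, 151 and 158 CPM, higher in both rd10 libraries. The part of other cells' RNA in the glial Akap12 level was not tested. Akap12 was also related to Lcn2, which encodes the acute-phase protein lipocalin 2. Among MG-like cells of rd10-vehicle, the 653 with an Lcn2 UMI had 105 CPM of Akap12 (98.0 to 113) and the 1839 without had 49.0 CPM (45.5 to 52.8). In rd10-TMB the levels were 78.5 CPM in 300 cells with Lcn2 and 24.9 CPM in 1448 without. Cells with Lcn2 also had more UMIs, with a median of 10153 against 8175 in rd10-vehicle, and the part of depth was not tested.

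Pde3b and Pde5a were the other members higher in rd10-vehicle MG-like cells. Pde3b had 20.8, 34.6 and 26.9 CPM, a log2 ratio of 0.71 (0.38 to 1.11). Pde5a was near the lower limit of detection, with 2.11, 5.72 and 3.46 CPM from 7, 127 and 58 UMIs, a ratio of 1.26 (0.36 to 2.78). Pericytes carry far more of it, at 301 CPM in the pericyte-like cluster, and 10 pericyte markers summed to 109, 151 and 158 CPM in MG-like cells, higher in both rd10 libraries than in WT. The part of pericyte RNA in the glial Pde5a level was not tested. On the lower side stood Pde10a, the cAMP-specific Pde7b and Akap7, a small AKAP that anchors PKA at membranes. The Pde7b levels were 10.2, 4.19 and 4.23 CPM with a log2 ratio of -1.32 (-1.87 to -0.68). The Akap7 levels were 61.7, 36.1 and 42.5 CPM with a log2 ratio of -0.78 (-0.998 to -0.55). When cells were thinned to 1000 UMIs the Pde5a and Pde7b ratios were 1.58 and -0.85, still beyond 1.5-fold, but their intervals included equal levels.

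Neither of the leading PKA subunits was called in these glia. Prkacb had 111, 112 and 117 CPM and a log2 ratio of 0.01 (-0.15 to 0.17), and the interval leaves out a 1.5-fold change. Prkar1a had 205, 240 and 231 CPM and a ratio of 0.23 (0.12 to 0.35), past the counting error but under 1.5-fold.

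Rod bipolar-like cells had 1 higher and 2 lower calls among 26 members, where 3.07% of all 7956 genes compared were higher and 1.75% lower. Pde4d (chr13:108654177-109955969), a cAMP-specific phosphodiesterase, had 9, 88 and 68 UMIs in the 3 libraries, or 4.58, 33.6 and 25.2 CPM, with a log2 ratio for rd10-vehicle over WT of 2.74 (1.89 to 4.05). Both rd10 libraries were far above WT. In OFF cone bipolar-like cells its level was 26.1, 42.3 and 29.8 CPM, from 58.1 CPM in cluster 7 and 13.4 in cluster 8 over the 3 libraries, and cluster 3 had 46.6, 49.0 and 44.4 CPM. A UMI of Pde4d was in 2.22%, 10.8% and 9.27% of rod bipolar-like cells, and in 0.249%, 2.49% and 2.52% after thinning, against 0.366%, 0.377% and 0.252% in cone-like cells. Adcy1 (chr11:7063433-7178506) was lower, with 78.9, 36.7 and 39.3 CPM and a log2 ratio of -1.10 (-1.49 to -0.73). With Pde10a, these 3 calls were kept under each alternative. The summed cyclase level of the class was 96.2, 57.3 and 58.2 CPM, since Adcy1 is most of it. Rod-like cells lead Adcy1 among the compared classes, and the 12 rod markers summed to 1445, 927 and 1309 CPM in rod bipolar-like cells. The part of rod RNA in this Adcy1 level was not tested.

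**Figure D5:**
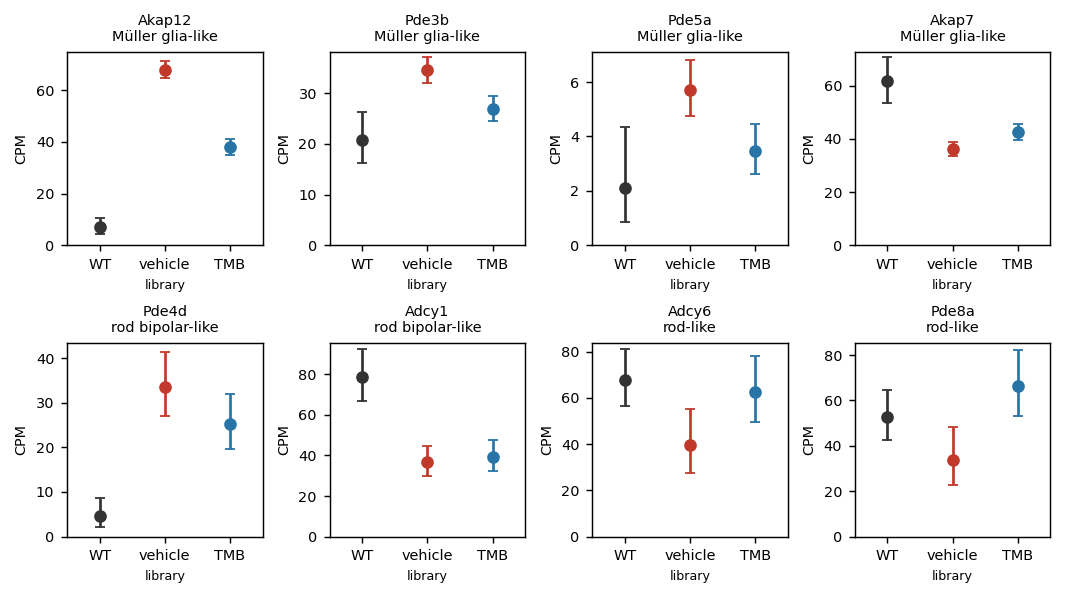
Level in CPM of 8 gene-class pairs in the 3 libraries (WT, rd10-vehicle, rd10-TMB) with 95% Poisson intervals, each axis starting at 0. Akap12 in Müller glia-like cells (6.93, 67.9 and 37.9) and Pde4d in rod bipolar-like cells (4.58, 33.6 and 25.2) are higher in both rd10 libraries, and Adcy6 (67.8, 39.5 and 62.5) and Pde8a (52.8, 33.7 and 66.5) in rod-like cells are lowest in rd10-vehicle.

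In rod-like cells 4 of 22 members were lower in rd10-vehicle beside the higher Pde10a, and of all 6623 genes compared there 6.13% were lower and 4.48% higher. Adcy6 had 67.8 CPM in WT and 39.5 in rd10-vehicle, a log2 ratio of -0.75 (-1.37 to -0.22). For Akap6, an anchor of the nuclear envelope, the levels were 60.6 and 31.4 CPM with a log2 ratio of -0.91 (-1.62 to -0.33). Akap1 and Pde8a had ratios of -0.60 (-1.20 to -0.08) and -0.61 (-1.30 to -0.04). Each of these 4 calls was lost under at least 1 alternative, Akap1 under 7 of 11, while the 4 ratios stayed between -1.18 and -0.45. Cone-like cells had 2 calls among 23 members, near the rate of all 7560 genes, of which 3.0% were higher and 3.48% lower. They were the higher Pde10a and a lower Akap6, at 36.5 and 19.5 CPM with a ratio of -0.90 (-1.49 to -0.32), which thinning reduced to -0.31. The cone-like summed level of the PKA catalytic subunits was 166, 135 and 134 CPM.

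In cluster 3, which carried 8 of 14 ON cone bipolar markers, 4 of 28 members were lower and none higher, beside 5.63% lower and 2.56% higher of all 6941 genes. Beside Pde10a these were Pde3a, a cGMP-inhibited phosphodiesterase, with 53.1 and 14.0 CPM and a log2 ratio of -1.88 (-2.74 to -1.17), Pde1c, with 96.0 and 51.8 CPM and a ratio of -0.89 (-1.34 to -0.45), and Akap7, with 74.6 and 48.3 CPM and a ratio of -0.62 (-1.11 to -0.14). The Akap7 call was lost under 5 of 11 alternatives, with a ratio of -0.44 against the WT cells marked as female. Gad1, Gad2 and Slc6a9 summed to 42.9 and 9.79 CPM in cluster 3, with 1.24 and 1.43 Pde3a UMIs for each of their UMIs. OFF cone bipolar-like cells had 1 lower call among 26, about the rate of all 6351 genes (1.97% lower and 2.31% higher). It was Pde3a, with 48.6 and 20.1 CPM. That ratio was -1.23 (-2.09 to -0.51), and it was -0.30, under 1.5-fold, against the WT cells marked as female, and -0.41 after thinning. The 3 amacrine markers summed to 13.5 and 8.05 CPM in this class, with 3.6 and 2.5 Pde3a UMIs for each. The part of amacrine RNA in the Pde3a values of cluster 3 and this class was not tested.

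Endothelial-like cells had 3 higher and 4 lower calls among 29 members, beside 5.87% higher and 10.2% lower of all 7585 genes, the class with the highest share lower. The calcium-driven phosphodiesterases were lower, with Pde1c at 44.4, 4.43 and 5.56 CPM in WT, rd10-vehicle and rd10-TMB and a log2 ratio of -3.18 (-4.60 to -2.26), and Pde1a at 68.0, 18.8 and 20.7 CPM and a ratio of -1.83 (-2.46 to -1.27). The Pde1a ratio was -0.63 in cells with at most 10% mitochondrial UMIs and -0.80 against the WT cells marked as female, both beyond 1.5-fold but with intervals that included equal levels. Prkaca was lower too, with 38.7, 19.4 and 28.6 CPM. On the higher side were the cGMP-specific Pde5a, with 51.6, 96.4 and 80.3 CPM and a ratio of 0.89 (0.50 to 1.32), Pde8a, with 58.7, 92.6 and 79.5 CPM, and Pde12, with 27.2, 42.7 and 23.1 CPM. Under at least 1 alternative the ratios of these 3 fell below 1.5-fold, to 0.55, 0.44 and 0.31, and the Prkaca call was lost after thinning, at -1.79. This class carried pericyte markers as well: 10 of them summed to 6222, 9472 and 9745 CPM in the 3 libraries. Pde5a and Pde1a were at 301 and 103 CPM in the pericyte-like cluster, where Pde1c had no UMI, and the lower Pde1a, Pde1c and Pde10a stand beside lower neuronal RNA. The summed markers of amacrine cells (15) were at 102, 22.2 and 38.2 CPM in this class, of rod bipolar cells (10) at 217, 72.6 and 110 CPM and of rods (12) at 715, 269 and 530 CPM. The part of pericyte or neuronal RNA in the endothelial values was not tested.

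Amacrine-like cells and clusters 6 and 10, with 35, 22 and 23 members compared, held the remaining 15 calls, Pde10a in both clusters among them. Of the 19064 pairs of all genes in these classes, 12.5% were called in either direction. Pde3a in cluster 6 had 344, 21.8 and 18.7 CPM in the 3 libraries, with a log2 ratio of -3.89 (-4.83 to -3.23). Without cells holding Gad1, Gad2 or Slc6a9 it was -1.31, still beyond 1.5-fold, with an interval that included equal levels. Pde4a in the same cluster was lower at a ratio of -1.23 (-2.13 to -0.49), Akap6 lower at -0.60 (-1.24 to -0.02), and Adcy2 higher at 0.59 (0.26 to 0.93). Without the same cells the Akap6 and Adcy2 ratios were 0.035 and 0.145. In cluster 10, Pde8b was lower (109, 19.3 and 40.1 CPM) and Pde4b and Prkar1b higher, with ratios of 1.26 and 0.86. All 3 of these calls were lost without cells holding the 3 markers, where the Pde8b ratio was -0.70 in place of -2.31, that of Pde4b 0.57 and that of Prkar1b 0.83. In amacrine-like cells, Pde1c (71.6, 14.7 and 11.9 CPM), Pde1b, Adcy1 and Akap8l were lower and Akap13 and Akap17b higher, from 5 to 30 rd10-vehicle UMIs each. Each of these 6 calls was lost under at least 2 of the 11 alternatives. The class was made up differently in each library, with 461 of 756 cells in cluster 5 in WT, 43 of 105 in rd10-vehicle and 35 of 83 in rd10-TMB, and the rest in cluster 9. The clusters differed in Pde1c, with 150 CPM in WT and 10.6 in rd10-vehicle (2 UMIs) in cluster 9 and 35.2 and 19.9 (3 UMIs) in cluster 5, and the ratio was -0.43 in cluster 5 alone, in place of -2.02. For Pde3a, not called in the class, cluster 5 had 162, 26.5 and 5.48 CPM in the 3 libraries and cluster 9 had 201, 239 and 247. Without these 3 classes, 9 pairs were higher and 19 lower, and shares over all genes were not counted for that set.

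The second comparison, rd10-TMB over rd10-vehicle, addressed the effect of the drug chow within the rd10 genotype and between libraries of the same sex. Far fewer members were called. Of 229 gene-class pairs, 3 were higher, or 1.31%, and 6 were lower, or 2.62%, while 1.53% of 66307 pairs of all genes were higher and 1.97% lower. Both shares were near those of all genes.

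Akap12 was lower in 2 classes. In MG-like cells it was 37.9 CPM in rd10-TMB against 67.9 in rd10-vehicle, a log2 ratio of -0.84 (-0.98 to -0.71), and in endothelial-like cells 219 against 338 CPM, a ratio of -0.62 (-0.83 to -0.41). Of the 9 calls these 2 were kept under each of 9 alternatives, and the other 7 were lost under at least 1. The endothelial-like ratio was -0.60 at its smallest, near the limit. The most Akap12 UMIs in 1 endothelial-like cell were 82 of 609 in rd10-vehicle and 20 of 276 in rd10-TMB. In MG-like cells they were 58 of 1508 and 54 of 636. The intervals do not cover such gathering in single cells. The MG-like ratio was larger without the 5% of cells with the most UMIs, at -1.27, and after thinning, at -1.65, and the endothelial-like ratio was -1.42 after thinning. Among MG-like cells with Lcn2 the level was 78.5 against 105 CPM, under 1.5-fold, and among those without it 24.9 against 49.0 CPM. The rd10-TMB level was still above WT, by a log2 ratio of 2.39 (1.85 to 3.12), in a comparison that shares the WT library with the first and the rd10-TMB library with the second.

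Of the 40 members compared in MG-like cells, 2 were lower in rd10-TMB and none higher, beside 2.66% of 13021 genes in either direction. The other was Pde5a, with a ratio of -0.71 (-1.20 to -0.27), and it was -0.48, under 1.5-fold, after thinning. Pde3b was 26.9 against 34.6 CPM, a ratio of -0.36 (-0.53 to -0.19), under 1.5-fold. Pde10a and Pde7b differed little, with ratios of 0.11 and 0.02.

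Rod-like cells held 2 of the 3 higher calls. Pde8a (chr7:81213265-81334535) was at 66.5 against 33.7 CPM, a log2 ratio of 0.95 (0.36 to 1.64), with 52.8 CPM in WT. Adcy6 (chr15:98589978-98610287) was at 62.5 against 39.5 CPM, a ratio of 0.64 (0.06 to 1.29), with 67.8 CPM in WT. Both had been lower in rd10-vehicle than in WT, and over WT their rd10-TMB ratios were 0.33 (-0.11 to 0.77) and -0.11 (-0.55 to 0.30). Since the same rd10-vehicle library stands in both comparisons, 1 low value there moves both. The shares of rod-like cells with a Pde8a UMI after thinning were 5.14%, 3.69% and 6.91%, with overlapping intervals. The summed level of 12 rod markers in the class was 57239, 54664 and 58581 CPM. Prkaca was lower in rd10-TMB, at 17.4 against 33.7 CPM and a ratio of -0.94 (-1.82 to -0.10), from 22 and 29 UMIs. Its ratio stayed between -1.29 and -0.76 under 9 alternatives, but under 5 of them the interval included equal levels. The Pde8a ratio stayed between 0.84 and 0.99, and its interval included equal levels in cells with at least 1000 genes. The Adcy6 call was lost under 2 of 9, with an interval that included equal levels in the same cells and a ratio of 0.56, under 1.5-fold, in cells with at most 10% mitochondrial UMIs.

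The remaining calls were in 3 classes. Pde10a in cluster 3 was higher, at 39.8 against 23.8 CPM with a ratio of 0.73 (0.09 to 1.41), and was lost under 4 of 9 alternatives. Akap10 in cone-like cells was lower, at 13.3 against 21.4 CPM with a ratio of -0.66 (-1.39 to -0.01), and at -0.04 after thinning. Pde12 in endothelial-like cells was lower, at 23.1 against 42.7 CPM with a ratio of -0.86 (-1.56 to -0.26), which turned to 0.13 after thinning. No member was called in rod bipolar-like, amacrine-like or OFF cone bipolar-like cells or in clusters 6 and 10. For Pde4d in rod bipolar-like cells the ratio was -0.41 (-0.90 to 0.06).

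Set side by side, rd10-TMB over WT gave 9 higher (3.33%) and 32 lower (11.9%) pairs of 270, beside 3.74% and 5.33% of 73613 pairs of all genes, and it shares a library with each of the others. In MG-like cells 2 of 38 members were higher and 6 lower, beside 5.53% and 6.58% of 11945 genes. Higher were Akap12 and Pde8b, the latter at 10.4 against 6.33 CPM with a log2 ratio of 0.66 (0.065 to 1.45). The lower phosphodiesterases were Pde10a, with a log2 ratio of -1.37 (-1.59 to -1.13), Pde7b, with -1.30 (-1.88 to -0.64), Pde9a, with -1.03 (-1.76 to -0.16), and Pde4d, with -0.63 (-0.99 to -0.24). Akap1 was lower at 6.20 against 11.7 CPM, and so was the PKA subunit Prkar2b at 11.6 against 17.5 CPM, a ratio of -0.61 (-1.02 to -0.14). The Pde3b ratio was 0.35 (0.003 to 0.758), under 1.5-fold. The rd10-TMB over WT ratios were not run under the alternatives, nor against the WT cells marked as female.

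The other genes of the pathway were counted in the same way. Of 240 pairs for rd10-vehicle over WT, 28 were higher (11.7%) and 20 lower (8.33%), against 4.72% and 5.74% of all pairs. Of 210 for rd10-TMB over rd10-vehicle, 4 were higher (1.9%) and 3 lower (1.43%), near the 1.53% and 1.97% of all pairs. Most of the higher ones were genes that CREB can induce, where 23 of 65 pairs were higher and 5 lower. These are also immediate early genes, which tissue dissociation can induce, and that was not tested. Nr4a1, a nuclear receptor, had 253 CPM in rd10-vehicle and 81.3 in WT MG-like cells, a log2 ratio of 1.63 (1.46 to 1.82), and Fos had 1598 and 569 CPM in rod-like cells, a ratio of 1.49 (1.37 to 1.61). Fos was at 4028 and 6332 CPM in WT and rd10-vehicle MG-like cells, whose markers were also higher in rd10 rod-like cells, as given beside Pde10a.

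Of the G protein alpha subunits that act on cyclases, 2 of 48 pairs were higher and 7 lower. The higher ones were the inhibitory Gnai2 in cone-like cells, 24.6 against 5.61 CPM, and in rod-like cells, 36.0 against 16.7 CPM. In MG-like cells Gnai2 had 1355 against 1228 CPM. The part of glial RNA in the rod-like Fos and the photoreceptor Gnai2 levels was not tested. Of genes for cGMP synthesis and cGMP-dependent kinases, 5 of 39 pairs were lower and none higher. Of the PKA inhibitors 2 of 20 were higher, both Pkig, at 55.2 against 30.1 CPM in MG-like cells and 231 against 124 CPM in rod-like cells, and 1 was lower. The CREB family had 1 higher and 2 lower pairs of 62, and no pair of 6 was called for the other cAMP effectors.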

How the data were processed

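The submitters' processing notes name Cell Ranger 6.0.1, Seurat 3.2.2 and mm10. According to the study's methods, doublets were removed before clustering. The deposited matrix holds natural log values made by the authors, ln(1 + UMIs per 10000 UMIs of the cell), and the deposited cell table gives each cell's total count of UMIs, library and cluster. With these totals 100% of 32620606 entries came back as whole UMIs within 0.001. For every class, the UMIs of a library's cells were added up, and cells were not used as replicates. Ratios carry exact conditional, sums exact Poisson and shares exact Clopper-Pearson 95% intervals. Limits for a count of 0 are those of 3 UMIs. A marker counted at 20 CPM or more and 2-fold over other cells, and a class name needed 3 such markers, with at least 2 of them, and more than of any other list, among the top 10 genes. The genes, lists and comparisons were chosen with earlier results of these data known. Named were, in each class the 3 highest members in WT, each member's leading class, per comparison up to 30 called member-class pairs by size, and up to 10 pathway genes; the further 13 calls for rd10-vehicle over WT, Akap7 and Pde3b in MG-like cells among them, were named after their values were seen. The ratio script was tested on simulated counts. Python 3.11.15, numpy 2.4.6, pandas 2.3.3 and scipy 1.17.1 were used. Alternatives covered scaling, filters on cells and counts, depth, joined clusters, sex of the WT cells, the pseudocount and the fold limit.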

Additional observations from a re-analysis of the deposited data

Results flagged for a closer look

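Pde10a and Pde8a are listed because the log2 ratio of rd10-vehicle over WT was called in opposite directions in different classes, each from 1 library per group. The difference between classes was not tested. For Pde10a the ratio was 2.46 in rod-like and 0.995 in cone-like cells, and -1.47 in MG-like, -2.15 in rod bipolar-like and -2.06 in endothelial-like cells, -2.23 in cluster 3, -2.29 in cluster 6 and -2.41 in cluster 10. For Pde8a it was -0.61 in rod-like and 0.65 in endothelial-like cells, and the rod-like call was lost under 5 of 11 alternatives, with ratios from -0.78 to -0.45, and the endothelial call under 3 of 11, with ratios from 0.44 to 1.01. Groups of 1 library allowed no search for outlying samples.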

How the results depend on the processing

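With 1 library per group, counting error is the only error measured. Leaving out a library or replicate was not possible. No paired analysis was possible because each group has 1 sample. Of 564 values under the alternatives, 533 stayed close to the reported value. Ratios of single genes were close when within its counting interval. The other values, the number of members with the same leading class in all 3 libraries, were close when within 1.5 times. The 2 that turned were Akap6 in cluster 6, at 0.035 for rd10-vehicle over WT in cells without Gad1, Gad2 or Slc6a9 UMIs (an alternative chosen after seeing the data), and Pde12 in endothelial-like cells, at 0.13 for rd10-TMB over rd10-vehicle after thinning. The cause was not tested.

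For rd10-vehicle over WT, the 14 higher pairs became 6 at 200 UMIs, 7 after thinning, 7 at a 2-fold limit and 9 without amacrine-like cells and clusters 6 and 10 (also chosen after seeing the data). The 29 lower pairs became 7, 13, 17 and 19, and 45 with the mean over cells. For rd10-TMB over rd10-vehicle, the 3 higher pairs became 7 at 20 UMIs, 0 at 200 UMIs, 1 in cells with at least 1000 genes, 11 at a lower fold limit, 0 at a 2-fold limit and 8 with the mean over cells, and the 6 lower pairs became 2 at 200 UMIs, 14 at the lower limit, 0 at 2-fold and 10 with the mean over cells. In MG-like cells, the 6 calls over WT became 10 at the lower limit, and the 2 calls of rd10-TMB became 1 at 200 UMIs, 7 at the lower limit and 0 at 2-fold. Both scalings, with median-of-ratios size factors and with totals without mitochondrial and ribosomal protein genes, left each of these 6 counts within 1.5 times. Shares over all genes were not counted under any alternative.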
